A study of Mus musculus with 2 samples.

Results

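Sis, Lct, Enpep and Fabp1 are genes of the absorptive enterocyte, and this account follows them in small intestinal organoids with and without an intact adiponectin gene in the gut epithelium. They were chosen by symbol, as brush border disaccharidases, a brush border peptidase and the fatty acid binding protein of enterocytes, and all 4 were found among the 1448 genes of the deposited count tables. The AdipKO organoids (labelled Adipfl/flpVilli-CreT) came from mice with a floxed adiponectin gene and Cre recombinase under the villin promoter, which is active along the intestinal epithelium and not only in Paneth cells. The WT organoids (labelled Adipfl/fl) came from mice that carried the floxed gene without Cre, so the floxed gene was shared by both groups. Both cultures were grown from crypts in Matrigel with R-spondin at 500 ng/ml, Noggin at 100 ng/ml and epidermal growth factor at 50 ng/ml. The age and sex of the mice, their number per library and the day on which RNA was taken are not given in the sources used here.

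Each genotype had 1 RNA library, so nothing below could be checked between replicates and no p-values were computed. The tables hold a part of each library that appears to have been selected on the difference itself. No gene had a log2 ratio of its counts between -1.04 and 0.96, and the smallest differences in the tables are therefore near 2-fold. Genes outside the tables were not analysed here, and their absence is not a count of 0. The counts of the tables summed to 689005 in the library labelled AdipKO and 802995 in the library labelled WT, and these sums are not sequencing depths. Adipoq, the targeted gene, was not in the tables, so the data hold no check of which library lacked it, and swapped labels would turn every direction given here. The study's text describes stem cell genes such as Lgr5, Ascl2 and Olfm4 as raised in AdipKO organoids, by RNA-seq and by qRT-PCR. By immunostaining it also reports more Lgr5-positive cells and more proliferating cells in these organoids. In these tables Lgr5 had 3127 counts in the library labelled AdipKO and 7858 in the library labelled WT, Ascl2 had 174 and 511, and Olfm4 had 34083 and 92810. The direction of the tables is thus opposite to the direction stated for these genes, which of the labels and the statement is right was not tested, and every direction below, those of Sis, Lct, Enpep and Fabp1 included, holds only for the libraries as labelled. Intervals are exact 95% intervals that cover counting error only. In whole organoids, fewer cells of a type and less RNA per cell cannot be told apart.

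Enterocytes are the absorptive cells of the villus, and their apical membrane is folded into a brush border that carries digestive enzymes. Disaccharidases split dietary sugars at this surface, peptidases trim peptides before uptake, and fatty acid binding proteins carry absorbed lipids inside the cell. In mice, lactase is abundant during suckling and falls at weaning, whereas sucrase-isomaltase rises at weaning. Transcription factors of the CDX, HNF1 and GATA families are known to act on the promoters of several of these genes.

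The sequences directly upstream of the annotated starts are shown because 3 of the genes were higher and 1 was lower in the same library. They are the 250 bases before each RefSeq start (GRCm38.p6, the assembly behind mm10), written 5′ to 3′ on the strand of the gene, and no base after the start is printed. They cover chr3:72967864-72968113 for Sis, chr1:128328319-128328568 for Lct and chr3:129332750-129332999 for Enpep, all on the minus strand, and chr6:71199629-71199878 for Fabp1 on the plus strand. Capitals mark every match, on either strand, of 1 of 5 motifs. The CDX core was searched as TTTAT, the HNF1 core as GTTAAT, the GATA site as AGATAA, the nuclear receptor core as AGGTCA and the TATA box as TATAAA.
Sis: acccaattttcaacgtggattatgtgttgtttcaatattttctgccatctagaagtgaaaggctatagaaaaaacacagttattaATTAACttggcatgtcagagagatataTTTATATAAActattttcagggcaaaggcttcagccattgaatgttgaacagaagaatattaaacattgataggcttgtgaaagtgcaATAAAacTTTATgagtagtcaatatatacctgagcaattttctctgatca
Lct: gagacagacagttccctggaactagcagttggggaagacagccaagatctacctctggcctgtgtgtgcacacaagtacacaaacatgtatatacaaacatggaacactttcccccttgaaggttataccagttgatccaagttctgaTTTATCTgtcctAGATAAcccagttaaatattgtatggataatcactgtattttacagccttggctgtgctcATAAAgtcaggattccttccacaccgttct
Enpep: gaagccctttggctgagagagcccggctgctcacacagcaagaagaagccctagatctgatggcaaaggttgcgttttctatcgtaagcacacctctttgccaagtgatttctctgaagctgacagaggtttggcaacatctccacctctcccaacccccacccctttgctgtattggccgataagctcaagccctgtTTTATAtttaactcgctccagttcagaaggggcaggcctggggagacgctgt
Fabp1: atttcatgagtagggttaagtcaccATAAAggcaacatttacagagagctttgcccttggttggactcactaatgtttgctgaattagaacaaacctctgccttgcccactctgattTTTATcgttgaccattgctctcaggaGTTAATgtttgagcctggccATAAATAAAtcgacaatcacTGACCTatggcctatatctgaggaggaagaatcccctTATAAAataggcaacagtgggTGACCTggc

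The CDX core was found in all 4 windows, with 4 matches upstream of Sis, 2 of Lct, 1 of Enpep and 5 of Fabp1. It is a common run of letters, present in 37.3% of all 32851 RefSeq windows of the same length. The HNF1 core was found once upstream of Sis, at bases -165 to -160, and once upstream of Fabp1, at -107 to -102. In the spelling GTTAAT it was present in 6.43% of all windows and matched neither in Lct nor in Enpep. The window of Lct holds GTTAAA, which was not searched. The GATA site, in the spelling AGATAA, was matched in Lct alone among the 4 genes, at -101 to -96 and at -90 to -85. This spelling was present in 9.99% of all windows. The window of Sis holds TGATAG, a variant spelling that was not searched. The nuclear receptor core was matched in Fabp1 alone, at -67 to -62 and at -9 to -4, against 14.0% of all windows. The TATA box was matched in Sis, Enpep and Fabp1, against 12.4% of all windows. Its match in Fabp1 lay at -30 to -25 on the strand of the gene. The matches in Sis lay farther upstream, at -138 to -133 on the opposite strand and at -134 to -129. That in Enpep lay at -52 to -47 on the opposite strand. In Lct, ATAAA at -30 to -26 lacked the first T of the TATA box and was counted as a CDX core alone. Every TATA box match shared bases with a CDX core, since the reverse complement of TTTAT lies within TATAAA, and in Lct a CDX core also shared bases with a GATA site. The window of Sis was the richest of the 4 in A and T, at 68.4%, and that of Enpep the poorest, at 47.6%. These matches describe letters only. Each motif was searched in 1 exact spelling, so a window without a match can still hold a variant of the site. Binding was not measured.

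**Figure D1:**
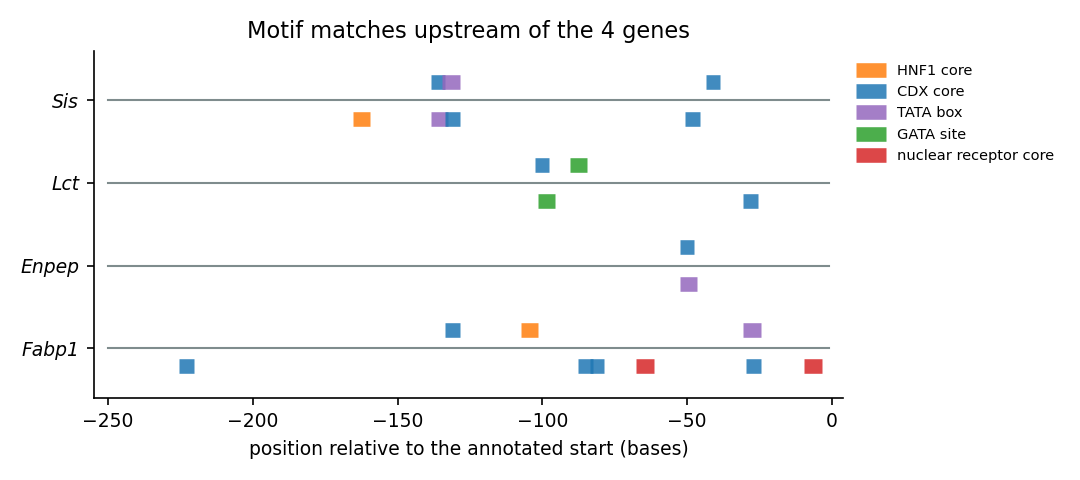
Matches of the 5 motifs in the 250 bases before the annotated start of each gene, with the position in bases on the x axis and 1 line per gene. Blocks above a line lie on the strand of the gene and blocks below it on the opposite strand. In the exact spellings searched, the HNF1 core appears in Sis and Fabp1 and the GATA site in Lct. Variant spellings were not searched and are not shown.

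Among the disaccharidases, Sis was higher and Lct lower in the library labelled AdipKO. Sis encodes sucrase-isomaltase, which splits sucrose and the products of starch digestion. Sis had 4435 counts in the library labelled AdipKO and 1377 in the library labelled WT, a 3.22-fold higher count (95% interval 3.03 to 3.42). It was the best counted of the 4 genes, and by count it stood at rank 31 of the 1448 genes in the library labelled AdipKO and at rank 93 in the library labelled WT. The gene (NCBI identifier 69983) spans 72888557 to 72967863 of chromosome 3 and its transcript has 47 exons.

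Lct encodes lactase-phlorizin hydrolase, which splits milk sugar. Lct had 8 counts in the library labelled AdipKO (95% interval 3.45 to 15.8) and 35 in the library labelled WT (24.4 to 48.7), a 4.38-fold lower count with a wide interval from 1.99 to 10.9. It was rare in both libraries, at rank 1154 in the library labelled AdipKO and rank 844 in the library labelled WT. Its direction therefore rests on few reads. The counting intervals of both libraries did not overlap, but the tables appear to have been selected on this same difference, so the gap is no separate support. Lct (NCBI identifier 226413) spans 128284756 to 128328318 of chromosome 1, with 17 exons.

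Enpep had the largest ratio of the 4 genes. It encodes glutamyl aminopeptidase, a zinc peptidase of the brush border that removes acidic residues from the start of peptides and that also acts on angiotensin. Enpep had 258 counts in the library labelled AdipKO and 40 in the library labelled WT, a 6.45-fold higher count (4.61 to 9.24). It stood at rank 810 in the library labelled WT and at rank 320 in the library labelled AdipKO, and 51 of the 1448 genes had a log2 ratio at least as high, itself included. Outside the gut Enpep is also known from kidney and from pericytes. None of 6 pericyte markers (Pdgfrb, Rgs5, Cspg4, Kcnj8, Abcc9 and Notch3) was in the tables, so their levels are not known and a part of pericytes was not tested. Enpep (NCBI identifier 13809) has 20 exons between 129269177 and 129332749 of chromosome 3, 56.3 Mb from Sis.

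Fabp1 encodes the liver-type fatty acid binding protein, a small cytosolic carrier that proximal enterocytes share with hepatocytes. Fabp1 had 462 counts in the library labelled AdipKO and 169 in the library labelled WT, a 2.73-fold higher count (2.29 to 3.28). It was at rank 229 in the library labelled AdipKO and rank 431 in the library labelled WT. Of 5 hepatocyte genes, Alb was the 1 in the tables, with 155 counts in the library labelled AdipKO against 55. Fabp1 (NCBI identifier 14080) has 4 exons between 71199879 and 71205034 of chromosome 6.

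**Figure D2:**
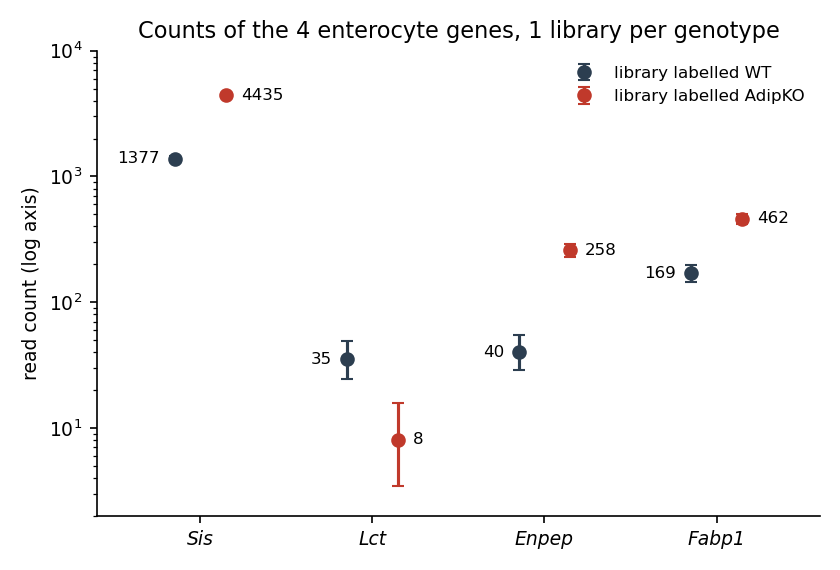
Read counts of the 4 genes on a log axis, with 1 point per library and bars for the exact 95% Poisson interval, which covers counting error only. Sis (1377 and 4435), Enpep (40 and 258) and Fabp1 (169 and 462) were higher in the library labelled AdipKO, and Lct (35 and 8) was lower.

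With a pseudocount of 1, 3 of the 4 genes were at least 2-fold higher and 1 was at least 2-fold lower in the library labelled AdipKO. Over all 1448 genes, 35.3% were at least 2-fold higher and 62.2% at least 2-fold lower. With 4 genes, these counts only describe the members. The log2 ratios were 1.69 for Sis, 2.66 for Enpep, 1.45 for Fabp1 and -2.00 for Lct, against a median of -1.15 over all genes. That median lies below 0 because the tables hold more lower than higher genes. A log2 ratio as high as that of Fabp1 or higher was found in 284 genes and as high as that of Sis in 216. A log2 ratio as low as that of Lct was found in 197 genes, Lct included.

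**Figure D3:**
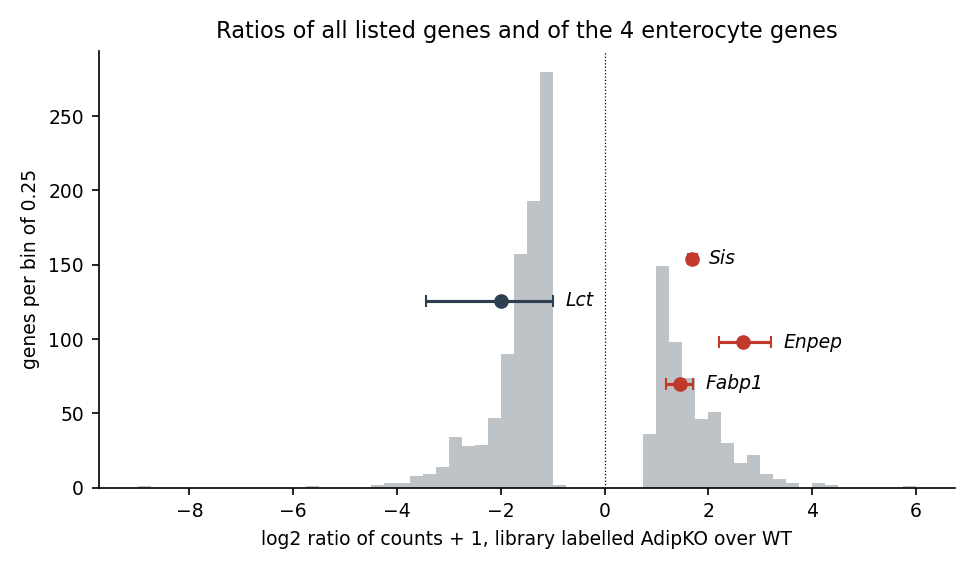
Log2 ratios of counts plus 1 for all 1448 genes in bins of 0.25 (bars, number of genes on the y axis), with the 4 genes as points at arbitrary heights and their exact 95% intervals, which were computed without the pseudocount. The region around 0 is nearly empty because the tables appear to have been selected on this ratio, and Sis, Enpep and Fabp1 lie to the right of it and Lct to the left.

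Per kilobase of transcript, the order of the levels was Fabp1, Sis, Enpep and Lct in both libraries. Fabp1 had 835 counts per kilobase in the library labelled AdipKO (761 to 915) and Sis had 753 (731 to 776). These intervals overlapped, but overlap of separate intervals does not show that the levels were alike. The ratio of these levels was not tested. In the library labelled WT, Fabp1 had 306 counts per kilobase (261 to 355) and Sis 234 (222 to 247), and these intervals did not overlap. The raw counts place Sis far above Fabp1, because the transcript of Sis has 5887 nucleotides and that of Fabp1 553. Enpep had 61.7 counts per kilobase in the library labelled AdipKO and 9.57 in the library labelled WT, well below both. Lct had 1.30 and 5.67. In the library labelled WT the interval of Lct (3.95 to 7.88) overlapped that of Enpep (6.83 to 13.0). This overlap likewise does not show that the levels of Lct and Enpep were alike.

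The count of 1 gene relative to another within a library does not depend on how the libraries are scaled to each other, and 6 such pairs were compared. The ratio of Sis to Lct was 554 in the library labelled AdipKO and 39.3 in the library labelled WT, a 14.1-fold difference (6.40 to 35.2). The ratio of Enpep to Lct differed by 28.2-fold (11.6 to 74.4) and that of Fabp1 to Lct by 12.0-fold (5.29 to 30.3). The selection of the tables fixes part of this, since a gene above the empty interval and a gene below it must differ by about 4.01-fold or more, so these 3 ratios do not show by themselves that Lct stood apart. Enpep also differed from the rest, with a ratio to Sis that was 2.00-fold higher (1.42 to 2.88) and a ratio to Fabp1 that was 2.36-fold higher (1.60 to 3.53) in the library labelled AdipKO. The ratio of Sis to Fabp1 was 9.60 and 8.15, a 1.18-fold difference whose interval (0.972 to 1.42) includes 1. This bounds the difference between Sis and Fabp1 without showing that they are alike. The intervals were not adjusted for the number of pairs.

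**Figure D4:**
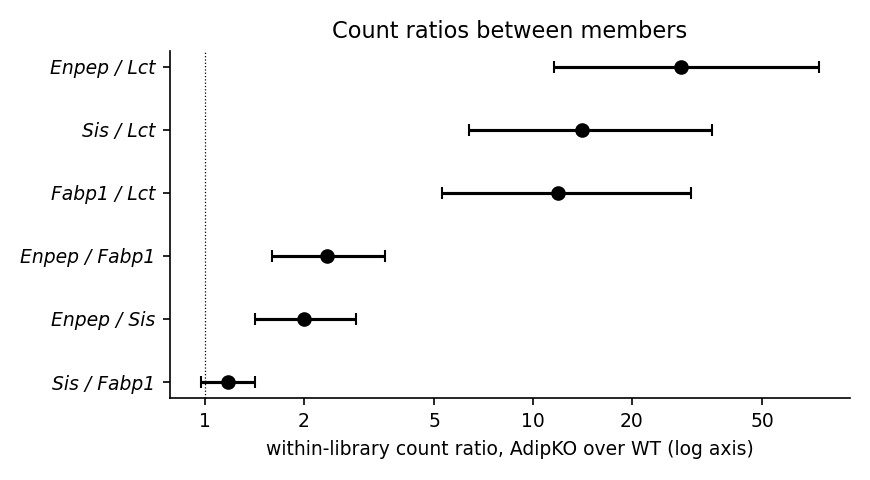
Count ratio of each pair of genes within a library, shown as the value in the library labelled AdipKO over that in the library labelled WT on a log axis, with exact conditional 95% intervals for counting error. The 3 pairs with Lct lie between 12.0 and 28.2, the pairs of Enpep with Sis and Fabp1 near 2, and Sis with Fabp1 at 1.18.

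Other genes of the enterocyte were taken from lists of brush border enzymes and structure, transporters and lipid handling, with 77 genes in all. Of these, 10 were in the tables, 8 at least 2-fold higher and 2 lower in the library labelled AdipKO, with a median log2 ratio of 1.40. Over all 1448 genes, 35.3% were at least 2-fold higher and 62.2% at least 2-fold lower, with a median of -1.15. The apparent selection of the tables places nearly every gene beyond 2-fold, so these counts only describe the listed genes. Leaving out the members left 6 genes, 5 higher and 1 lower, whose median was 1.32. The other 67 genes were not in the tables, among them Vil1, Alpi, Anpep, Fabp2 and Apoa1, so the genes followed here are a small part of the enterocyte programme and most of its defining markers were not analysed here.

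Of 13 brush border peptidases, 3 were in the tables and all 3 were higher, against 35.3% of all genes at least 2-fold higher. With 3 genes, this only describes them, and their log2 ratios ran from 1.09 to 2.66. Mme, which encodes neprilysin, had 176 counts in the library labelled AdipKO against 68, 2.59-fold higher (1.95 to 3.48). Mep1b, a subunit of the protease meprin, had 257 against 120, 2.14-fold higher (1.72 to 2.68). The interval of Enpep did not overlap those of Mme and Mep1b.

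The remaining brush border genes went both ways. Nt5e, a nucleotidase of the cell surface, had 42 counts in the library labelled AdipKO against 10, 4.20-fold higher (2.07 to 9.39). Pdzk1, a scaffold protein below the membrane, had 27.09 against 10.57, 2.45-fold higher (1.18 to 5.48), in fractional counts. Akp3, an intestinal alkaline phosphatase, was lower like Lct, with 88 counts in the library labelled AdipKO against 224, 2.55-fold lower (1.98 to 3.30). None of 9 sugar and amino acid transporters was in the tables.

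Of 26 genes of lipid uptake and chylomicron assembly, Fabp1 and Mogat2 were in the tables. Mogat2, an acyltransferase that rebuilds triglycerides from absorbed monoacylglycerol, had 542 counts in the library labelled AdipKO against 191, 2.84-fold higher (2.40 to 3.36), and its interval overlapped that of Fabp1. Fabp1 is a known target of the lipid-sensing PPAR receptors. Genes of PPAR signalling and fatty acid oxidation are given by their values only, without a count over the list. Pparg, a receptor of this family, had 1212 counts against 580, 2.09-fold higher (1.89 to 2.31). Ppargc1a, a coactivator of mitochondrial genes, had 439 against 135, 3.25-fold higher (2.68 to 3.97), and Pdk4, an inhibitor of pyruvate oxidation, had 21 against 6.

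Of 18 transcription factors of the enterocyte, Hnf4g was the 1 in the tables, with 1124 counts in the library labelled AdipKO against 507, 2.22-fold higher (1.99 to 2.47). The CDX, HNF1 and GATA genes of that list, whose motifs are marked in the sequences above, were not in the tables. Genes typical of suckling enterocytes went both ways. Prdm1, a repressor that in mice holds enterocytes in the suckling state, had 8 counts in the library labelled AdipKO against 38, 4.75-fold lower (2.18 to 11.8). Fcgrt, the receptor that takes up maternal antibodies, had 62 against 23, 2.70-fold higher (1.65 to 4.56). Treh and Arg2, which like Sis rise at weaning, were not in the tables.

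**Figure D5:**
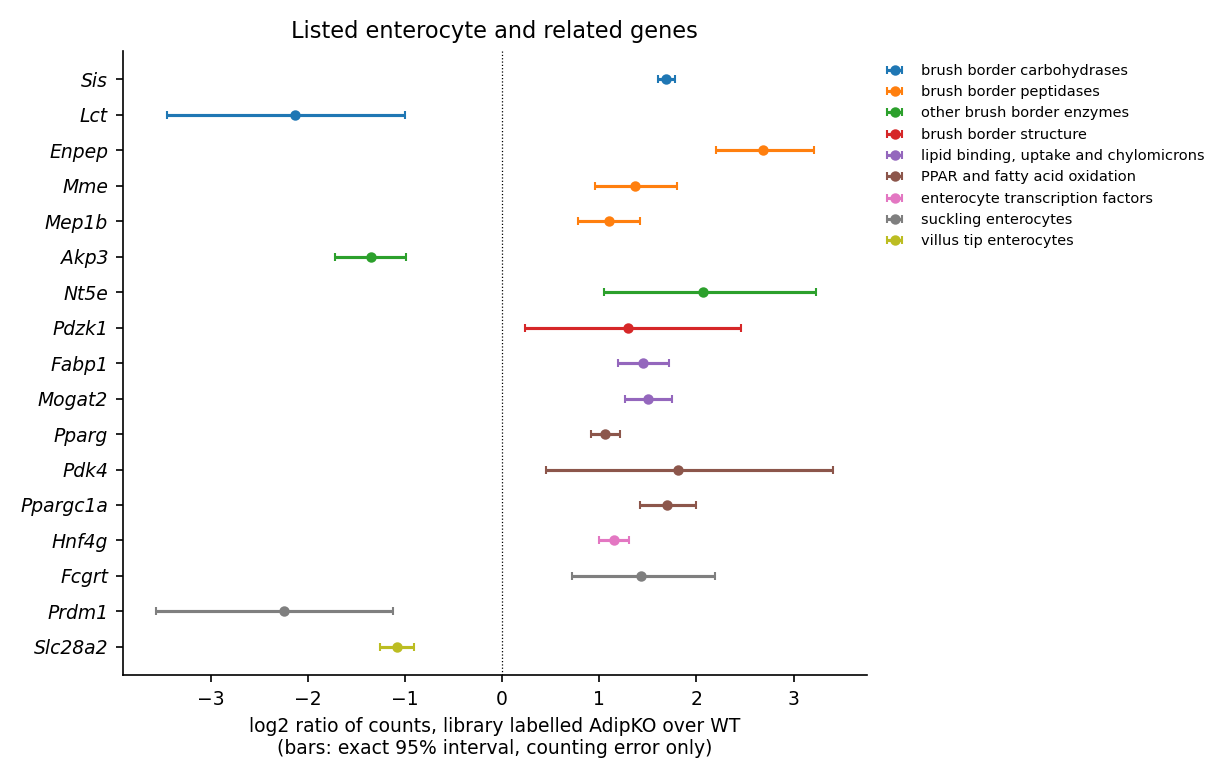
Log2 ratios of the counts of enterocyte and related genes in the tables, coloured by list, with exact 95% intervals for counting error only. Lct, Akp3, Prdm1 and Slc28a2 lie to the left of 0, and the other drawn genes lie to the right (higher in the library labelled AdipKO). Over all 1448 genes, 35.3% were at least 2-fold higher and 62.2% at least 2-fold lower. Of the 77 enterocyte list genes, 67 are not drawn, so the plot describes only the genes shown.

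The genes most like each member over both libraries were found by distance on the scale of log2 of the count plus 1. With only 2 libraries, likeness means a like level and a like ratio. The nearest gene to Lct was Prdm1, at a distance of 0.12, followed by Pcsk1n, an inhibitor of prohormone cleavage, at 0.15 with 9 and 35 counts. The nearest to Sis were Cyp2c65, a cytochrome P450, at 0.12 and Cth, an enzyme of cysteine synthesis, at 0.18. The nearest to Enpep were Clec2h, a C-type lectin, at 0.20 with 284 and 36 counts, and Bco2, a carotenoid-cleaving oxygenase, at 0.33. The nearest to Fabp1 were Cldn8, a tight junction protein, at 0.10 with 480 and 179 counts, and Rab11fip4, a partner of a Rab GTPase, at 0.11.

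Markers of other epithelial cells moved beside the enterocyte genes. Of 10 stem cell markers, 6 were in the tables and all 6 were lower, with summed counts of 41770 in the library labelled AdipKO and 112043 in the library labelled WT, the direction opposite to the study's text noted above. Olfm4, Lgr5 and Axin2 had the highest counts among them. Of 10 Paneth cell markers, 6 were in the tables and all 6 were lower, with sums of 30914 and 68608, led by Lyz1, Itln1 and Mmp7. Lyz1 is also named in the study's text among the raised genes, again opposite to the tables. Of 10 enteroendocrine markers, 5 were in the tables and all 5 were lower, with sums of 4462 and 10609, led by Cck, Gcg and Chga. For comparison, 62.2% of all 1448 genes were at least 2-fold lower. None of 8 goblet cell markers was in the tables, and no marker in the tables was at 0 in either library. The summed counts of the 10 enterocyte genes were 6295 and 2245, of which Sis alone made up most. The part of these shifts in the results for Sis, Lct, Enpep and Fabp1 was not tested.

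Base composition moved with the direction as well. Among the 4 equal groups of genes by transcript GC content, in the group with the lowest values 61.3% were higher in the library labelled AdipKO, against 36.2%, 31.3% and 23.8% in the following groups. Sis (40.5% GC), Enpep (45.5%) and Fabp1 (45.8%) all fell in the lowest group, whereas Lct (52.9%) fell in the group where 31.3% of the genes were higher. The part of base composition in these results was not tested. The counts of Sis, Lct, Enpep and Fabp1 were whole numbers in each library, and none overlapped another RefSeq gene on either strand.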

How the data were processed

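Organoid RNA was sequenced by BGI (MGISEQ-2000, paired-end reads), with 1 library for AdipKO and 1 for WT. The authors deposited estimated counts (reads per gene, unscaled) for the same 1448 mRNA genes in each library. The build named in the submitters' processing notes was mm10. Aligner, counting program, annotation and strand setting are not given in the sources used here. Counts were whole in both libraries for 1239 genes. The tables appear to have been selected on the fold change and give no library totals, so counts were not scaled and depth was not analysed here.

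Groups followed the genotype labels. Log2 ratios used a pseudocount of 1, and a gene was called higher or lower from 2-fold upward where its larger count was 1 or more. Fold changes are ratios of both counts without a pseudocount, with exact (Clopper-Pearson) 95% intervals after rounding to whole counts. Single counts have exact Poisson intervals, and pairs of genes have conditional exact intervals of the odds ratio. Reads are not independent molecules, so intervals cover counting error only. With 1 library per genotype no test between genotypes was made. The members, lists and motifs were chosen with earlier results of these data known. Named genes were the members, the genes of the enterocyte and related lists in the tables, up to 3 genes of each other cell type list with the highest summed count, and the 2 genes nearest to each member. Of 1448 gene IDs, 1436 matched RefSeq GRCm38.p6, which gave coordinates and sequences. Transcript length and GC content came from GENCODE transcripts of the same assembly (1394 genes). Calculations used Python 3.11.15, pandas 2.3.3 and scipy 1.17.1 and were tested on simulated data. Alternatives covered the pseudocount, scaling, threshold, count floor and list membership. Some genes of these lists are not reported here and were left out of the lists, their counts and the plots, in either direction.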

Additional observations from a re-analysis of the deposited data

How the results depend on the processing

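Of 52 alternative values for the 4 genes and the enterocyte lists, 43 stayed within their limits, 9 moved and 0 reversed. Counts of calls could only stay or move by the rule used. The direction of Sis, Lct, Enpep and Fabp1 was the same under pseudocounts of 0.5 and 5 and under both scalings. A pseudocount cannot turn a direction, and no gene lay close enough to 0 for these scalings to turn it. The absence of reversals is therefore no evidence that the directions are stable. Making the sums of the tables equal shifts every log2 ratio by about 0.22 and moved that of Sis to 1.91, outside its counting interval. Scaling to the middle of the empty interval and restriction to whole counts were chosen after seeing the data. The first left every count of calls the same, and the second gave 7 of 9 list genes higher and a median of 1.45, against 8 of 10 and 1.40. At a threshold of 4-fold, 1 member was higher (Enpep) and 1 was lower (Lct, exactly at the limit with a log2 ratio of -2.00). The 1 enterocyte list gene higher and the 1 lower at this threshold were these same genes. Nt5e, 4.20-fold higher without the pseudocount, had a log2 ratio of 1.97 with it and was not called. With a floor of 50 on the larger count, 0 members and 1 list gene were lower, since Lct was then left out. Without the members 5 list genes were higher and 1 was lower. The mean log2 ratio of the list was 0.97, below its median, and Lct and Akp3 are its negative values. No paired analysis was possible because there was 1 library per genotype, and for the same reason no library could be left out. The ratio of Lct rests on 8 reads in the library labelled AdipKO.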

Other observations

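Markers of the villus tip went both ways. Of 5 such genes, Nt5e and Slc28a2 were in the tables. Slc28a2, a nucleoside transporter of the upper villus, had 392.98 counts in the library labelled AdipKO against 832.99, 2.12-fold lower (1.88 to 2.40), while Nt5e was higher. Ada, Apoa4 and Klf4 were not in the tables.

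Of 8 tuft cell markers, 3 were in the tables at low counts. Spib had 27 counts in the library labelled AdipKO against 12, Lrmp had 25 against 12 and Il17rb had 20 against 44. Of 6 immune markers, Cd68 had 235 counts against 109 and Itgam had 57 against 25. Ptprc, which marks all leukocytes, was not in the tables, so its level is not known. Vim was the 1 mesenchymal gene of 7 in the tables, with 109 counts against 322.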
